A study of Mus musculus with 6 samples.

Results

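Serotonin and histamine are made from dietary amino acids, packed into granules, taken back from outside the cell and broken down by a small set of enzymes and transporters. The account below follows 10 such genes in the mouse mast cell line MC/9: Tph1, Ddc, Gch1, Pts, Hdc, Slc18a2, Slc6a4, Maoa, Maob and Hnmt. They were chosen by symbol for their place in the pathway, and all 10 were found among the 49568 genes of the count table. MC/9 is an established line labelled as mast cells, and all 6 libraries come from it. Osteoblasts of the mouse line 7F2 were plated first and the mast cells were added a day later. In the rPTH group (3 libraries) the co-culture received rPTH at 10 nM for 24 h; the control group (3 libraries) is labelled as untreated. The labels do not spell out rPTH, read here as a parathyroid hormone preparation, and do not state if osteoblasts were present in the control cultures too. Nothing in them says that the replicates are separate cultures, so the spread between libraries may be technical.

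Mast cells store amines in acidic granules bound to proteoglycan and release them on stimulation. Serotonin is formed from tryptophan in consecutive steps: a hydroxylase that needs the cofactor tetrahydrobiopterin (BH4) acts first and a decarboxylase that needs pyridoxal phosphate acts second. Histamine is formed from histidine by a related decarboxylase in a single step. Rodent mast cells are known for holding both amines. Inside the cell, monoamine oxidases break down serotonin and a methyltransferase breaks down histamine.

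Total counts were 22282095 to 24993606 in the controls and 30623648 to 33577977 with rPTH, so every rPTH library was deeper. Levels are given as CPM (counts scaled to a common library total), further scaled by TMM factors (a scaling that assumes most genes keep their level between libraries), unless plain CPM is named. Control 1 stood apart: its TMM factor was 0.81 against 1.03 to 1.06 in the other 5 libraries. Transcripts of cytosolic ribosomal proteins took 97760 plain CPM of it against 44600 to 52310 in the others. The mast cell label was checked against 12 markers, of which 11 were high enough to test; the chymase Mcpt4 had 0 to 4 counts. Fcer1a, a chain of the IgE receptor, averaged 1605 ± 407 CPM over the controls and 1367 ± 267 CPM over the rPTH libraries (SD, n = 3 each). Control 1 was lowest for Kit (279 CPM against 457 to 606), Il1rl1 (536 against 814 to 1031) and Mitf (52.2 against 75.5 to 91.8). It was highest for Fcer1a, Cpa3, Cma1, Tpsb2, Tpsab1 and Srgn, and in between for Gata2 and Ms4a2. By log2 fold change, 4 of the 11 leaned higher with rPTH and 7 lower, and 0 were called in edgeR. All tested genes divided into 6930 higher and 9766 lower. Transcripts of 28 osteoblast and stromal markers were also present, at 1664 to 2176 plain CPM in controls and 2708 to 4300 plain CPM with rPTH. Of that list Lox, Thbs2 and the collagens were well above 0, while Ibsp, Dmp1, Lum, Dcn, Bglap and Bglap2 had at most 5 counts in any library. Macrophage markers summed to 5.34 to 6.92 plain CPM, with C1qa, C1qb and Marco at 0 to 3 counts.

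Tph1, the tryptophan hydroxylase of peripheral tissues that sets the pace of serotonin synthesis, was the most abundant of the 10 genes. Its counts ran from 75403 to 109812 per library, 0.26% to 0.349% of all counts. The levels were 3899, 3376 and 3261 CPM for controls 1 to 3 and 2525, 3184 and 3041 CPM for rPTH 1 to 3. All 3 rPTH libraries lay below the controls on this scale, but not in plain CPM, where rPTH 2 (3332) and rPTH 3 (3230) were above control 1 (3155). The means were 3512 ± 340 and 2917 ± 347 CPM (SD, n = 3 each). The log2 fold change was -0.27 ± 0.24 (SE), with a 95% interval from -0.82 to 0.29. In edgeR the unadjusted p was 0.293 and the adjusted p 0.671, so the gene was not called. Counting error at the lowest count was 0.364%, far under the SDs of 9.68% and 11.9% of the mean, so depth did not limit this gene. The paralogue of neurons, Tph2, had only 6 to 24 counts per library.

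Ddc, the aromatic amino acid decarboxylase that turns 5-hydroxytryptophan into serotonin, followed Tph1 from library to library. It had 129, 104 and 100.3 CPM for controls 1 to 3 and 74.3, 98 and 95.6 CPM for rPTH 1 to 3. As for Tph1, control 1 was highest and rPTH 1 lowest, and the groups did not overlap; in plain CPM they stayed apart only narrowly, with 102.5 in rPTH 2 and 104 in control 3. The means were 111 ± 15.9 and 89.3 ± 13 CPM (SD, n = 3 each) and the log2 fold change was -0.31 ± 0.19 (SE), with a 95% interval from -0.75 to 0.13 and an adjusted p of 0.628 in edgeR. Without rPTH 1 it was -0.20 and without control 1 also -0.20; for Tph1 these were -0.17 and -0.20. After removal of each library's trend with gene length and GC content the value was -0.34 for Ddc and -0.45 for Tph1, and with library totals as the only scaling it was -0.17 and -0.13.

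The ratio of Tph1 to Ddc does not depend on the scaling of libraries. Per kb of exon, Tph1 was 21.8, 23.6 and 23.5 times as high as Ddc for controls 1 to 3 and 24.6, 23.5 and 23 times for rPTH 1 to 3. The ratio thus moved by little while each gene's own level varied, with means of 23 ± 1 and 23.7 ± 0.802 (SD, n = 3 each). Its size depends on the length used: with the longest annotated transcript of each gene the means were 14.1 ± 0.615 and 14.5 ± 0.491. Among 8790 other protein-coding genes with a mean of at least 10 CPM, the 3 whose log2 CPM correlated best with that of Tph1 over the 6 libraries were Chek2 (Pearson r = 0.996), Rmdn3 (0.996) and Ddc (0.994). With 6 libraries and so many candidates, values this high are given as a description only, and all points share the library scaling.

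The start regions of Tph1 and Ddc are shown because this pair kept the most even ratio across libraries among the 5 pairs compared. RefSeq lists 2 start sites for each, and the counts do not tell which was used. Each line gives the 250 bases before a start on build GRCm38.p6, all on the minus strand, 5′ to 3′. The outer windows lie just before the annotated 5′ end of their gene. Overlap of the inner windows with annotated exons was not checked. The first Tph1 window is chr7:46672538-46672787 and the second chr7:46667378-46667627, inside the gene. The first Ddc window is chr11:11898145-11898394 and the second chr11:11890409-11890658. Capitals mark matches on either strand to TGACG, the core of the element bound by cAMP-responsive factors, or to TATAAA; a match on the other strand is shown as its reverse complement.
Tph1 outer start: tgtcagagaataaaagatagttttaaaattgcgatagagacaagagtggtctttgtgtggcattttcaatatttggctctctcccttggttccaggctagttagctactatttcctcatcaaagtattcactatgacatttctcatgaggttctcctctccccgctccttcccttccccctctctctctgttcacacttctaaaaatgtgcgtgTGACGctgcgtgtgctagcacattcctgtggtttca
Tph1 inner start: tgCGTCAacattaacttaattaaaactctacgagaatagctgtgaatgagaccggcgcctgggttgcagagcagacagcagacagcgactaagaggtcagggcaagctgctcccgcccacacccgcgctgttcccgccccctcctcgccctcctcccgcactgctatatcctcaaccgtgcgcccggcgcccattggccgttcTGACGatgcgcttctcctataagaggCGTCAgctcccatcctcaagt
Ddc outer start: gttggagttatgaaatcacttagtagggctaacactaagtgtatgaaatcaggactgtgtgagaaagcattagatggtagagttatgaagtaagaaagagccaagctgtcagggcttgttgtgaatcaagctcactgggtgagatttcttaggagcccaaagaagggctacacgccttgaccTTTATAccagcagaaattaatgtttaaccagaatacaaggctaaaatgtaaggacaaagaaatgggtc
Ddc inner start: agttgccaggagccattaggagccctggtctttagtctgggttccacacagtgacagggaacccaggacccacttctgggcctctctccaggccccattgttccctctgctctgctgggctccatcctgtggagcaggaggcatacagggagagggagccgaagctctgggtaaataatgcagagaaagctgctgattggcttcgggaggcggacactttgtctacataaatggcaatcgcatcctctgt

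TGACG occurred once before the outer Tph1 start, 36 bases from it, and at 21, 47 and 248 bases before the inner one. Among the 32851 RefSeq windows of this length, 17.8% held TGACG on either strand. Neither Ddc window held it; TATAAA lay on the other strand 68 bases before the outer Ddc start and was in 12.4% of all windows. Of the other members, Gch1, Maoa and Slc6a4 had 1 TGACG each, and Hdc, Slc18a2, Pts and Hnmt had none. GATAA, the core letters bound by GATA factors, was in the windows of Slc18a2 and Maoa and in 22.6% of all windows. CATGTG, an E-box of the kind bound by the mast cell factor Mitf, was in that of Slc6a4 and in 12.3% of all. CACGTG was in none of the members' windows and in 6.02% of all. The windows covered 9 of the 10 members. A match describes letters only.

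The cofactor BH4 is made from GTP, with GTP cyclohydrolase (Gch1) acting first and 6-pyruvoyltetrahydropterin synthase (Pts) second. Gch1 had 43.7, 27.6 and 24.1 CPM for controls 1 to 3 and 22.9, 29 and 28.9 CPM for rPTH 1 to 3. Control 1 was far above the other 5 libraries, and without it the log2 fold change went from -0.24 ± 0.26 (SE) to 0.05. Its means were 31.8 ± 10.4 and 26.9 ± 3.52 CPM (SD, n = 3 each), with an adjusted p of 0.715 in edgeR. Pts had 20.7, 16.5 and 16.4 CPM in the controls and 13.8, 13.4 and 14.2 CPM with rPTH. Every rPTH library was below every control for Pts, and the rPTH libraries lay within an SD of 2.96% of their mean. Counting error was 5.14% at the lowest count, 379 in control 3, and somewhat smaller at the 436 to 508 counts with rPTH. The means of Pts were 17.9 ± 2.44 and 13.8 ± 0.41 CPM (SD, n = 3 each). The log2 fold change was -0.37 ± 0.17 (SE), with a 95% interval from -0.77 to 0.04. Its unadjusted p of 0.0705 was the smallest among the members, and the adjusted p in edgeR was 0.619. The log2 fold change of Pts was -0.26 without control 1, -0.71 after removal of the length and GC trend and -0.23 with library totals only. For Gch1 the last 2 settings gave -0.44 and -0.07.

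Hdc, the histidine decarboxylase that makes histamine, was second in abundance, with 12515 to 21904 counts per library. It had 795, 599 and 541 CPM for controls 1 to 3 and 465, 572 and 614 CPM for rPTH 1 to 3. The groups overlapped, with rPTH 3 above controls 2 and 3. The means were 645 ± 133 and 551 ± 76.8 CPM (SD, n = 3 each) and the log2 fold change was -0.23 ± 0.23 (SE), with a 95% interval from -0.77 to 0.31 and an adjusted p of 0.698 in edgeR. Without control 1 it was -0.06, without rPTH 1 -0.12, with library totals only -0.08 and after removal of the length and GC trend -0.36. The genes most like Hdc over the 6 libraries were Oasl1 (Pearson r = 0.996), Fbxo44 (0.989) and Ripk3 (0.984), among 8790 candidates. Tph1 was 5.08 to 6.24 times as high as Hdc per kb of exon, with the highest ratio in control 3 and the lowest in control 1.

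**Figure D1:**
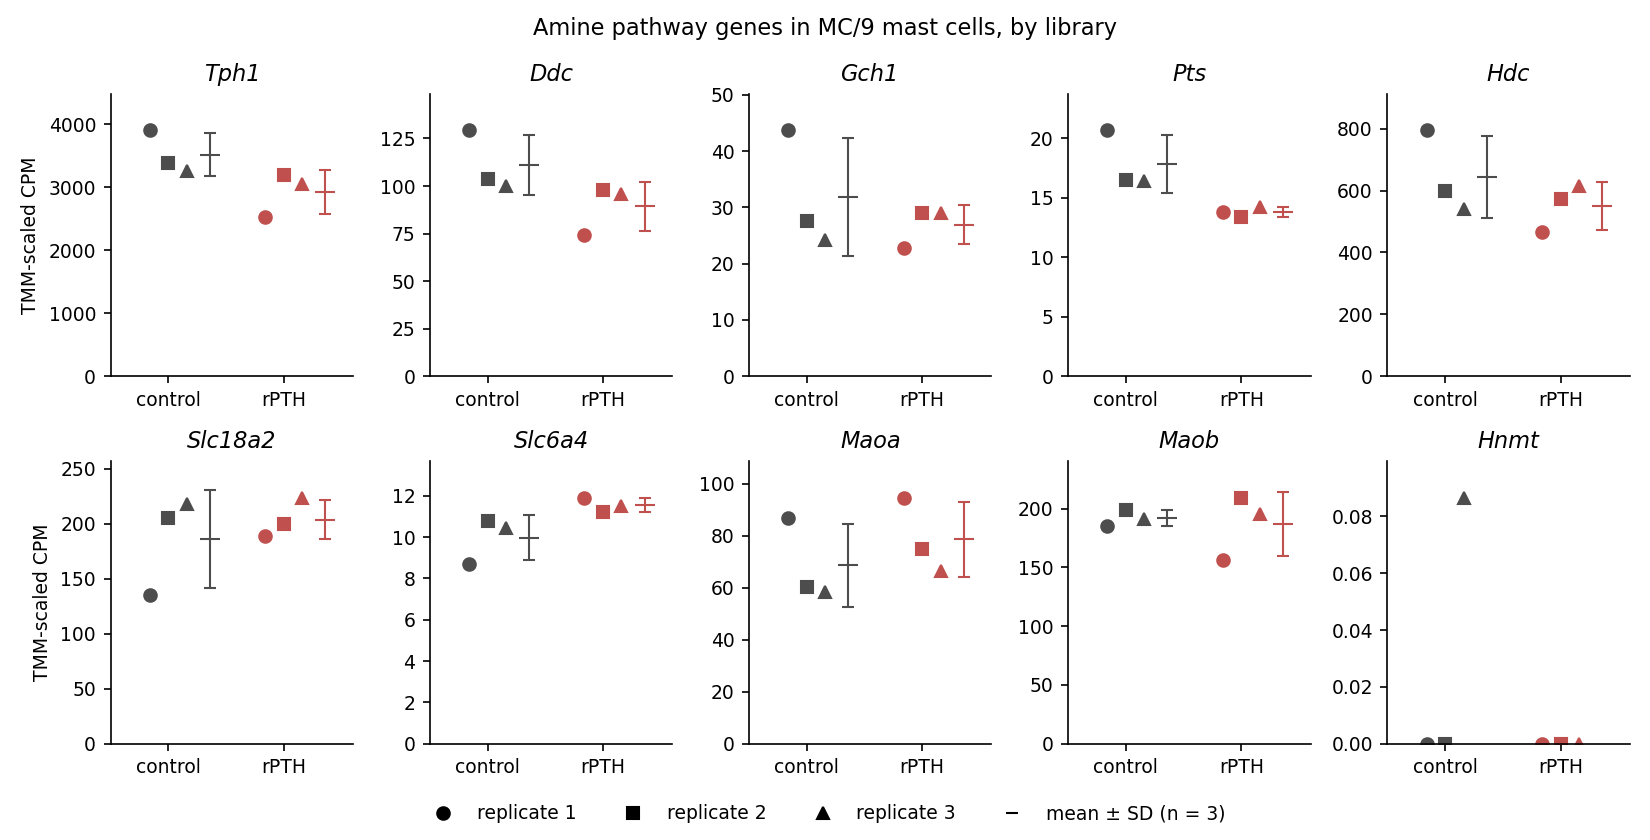
Level of each of the 10 genes in every library (TMM-scaled CPM, linear axis from 0), with controls in grey, rPTH in red, marker shapes for replicate numbers and bars for mean ± SD (n = 3); Hnmt has no bar because 5 of its 6 libraries are at 0. Control 1 (grey circle) is highest for Tph1 (3899 CPM), Ddc (129), Gch1 (43.7), Pts (20.7) and Hdc (795) and lowest for Slc18a2 (135) and Slc6a4 (8.72).

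Slc18a2, the vesicular monoamine transporter VMAT2 that loads serotonin and histamine into granules, ran the other way in control 1. It had 135, 205 and 218 CPM for controls 1 to 3 and 189, 199 and 223 CPM for rPTH 1 to 3. Control 1 was the lowest library by a wide margin, also in raw counts (2672 against 5039 to 7967), and the other 5 overlapped. The means were 186 ± 44.4 and 204 ± 17.9 CPM (SD, n = 3 each). The log2 fold change was 0.13 ± 0.22 (SE), a 95% interval from -0.39 to 0.65 and an adjusted p of 0.805 in edgeR. Without control 1 the log2 fold change was -0.06, without control 3 it was 0.33, with library totals only it was 0.22 and after removal of the length and GC trend it was 0.05. The antisense gene Gm29261 overlaps 111 exonic bases of Slc18a2 and had 0 to 6 counts.

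Slc6a4, the plasma membrane transporter that takes serotonin back into the cell, was the least abundant tested member, with 172 to 410 counts. It had 8.72, 10.8 and 10.4 CPM for controls 1 to 3 and 11.9, 11.2 and 11.5 CPM for rPTH 1 to 3. All 3 rPTH libraries were above the controls, both here and in plain CPM. The step is small beside control 2: 11.2 CPM in the lowest rPTH library, rPTH 2, against 10.8. Counting error was 7.62% at the lowest count of the gene, 172 in control 1. It was smaller at the 278 counts of control 2 and the 387 counts of rPTH 2. The means were 9.97 ± 1.1 and 11.5 ± 0.342 CPM (SD, n = 3 each) and the log2 fold change was 0.21 ± 0.18 (SE), with a 95% interval from -0.22 to 0.64 and an adjusted p of 0.667 in edgeR. It was 0.11 without control 1 and 0.32 both without control 3 and with library totals only.

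Maoa and Maob encode the mitochondrial monoamine oxidases A and B and lie tail to tail on chromosome X with 21463 bases between them. Maoa prefers serotonin as a substrate. It had 86.8, 60.3 and 58.5 CPM for controls 1 to 3 and 94.5, 75 and 66.5 CPM for rPTH 1 to 3. The groups overlapped only through control 1, and in plain CPM all 3 rPTH libraries were above the controls. The means were 68.5 ± 15.8 and 78.7 ± 14.4 CPM (SD, n = 3 each). The log2 fold change was 0.20 ± 0.22 (SE), with a 95% interval from -0.33 to 0.73 and an adjusted p of 0.725 in edgeR. Without control 1 the log2 fold change was 0.39 (adjusted p = 0.4), without rPTH 1 it was 0.05, with library totals only it was 0.35, and after removal of the length and GC trend it was -0.06.

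Osteoblast and stromal transcripts are given here beside Maoa. In plain CPM Maoa had 70.2, 62.3 and 60.7 for controls 1 to 3 and 97.2, 78.4 and 70.6 for rPTH 1 to 3, while the 28 stromal markers summed to 1664, 2176 and 2106 and to 4300, 2708 and 3023. Library rPTH 1 was highest in both. Among the controls, control 1 had the lowest marker sum and the highest Maoa. Between the other rPTH libraries, rPTH 3 had the higher marker sum and the lower Maoa. For the 22 tested stromal markers the log2 fold changes were all above 0 (median 0.56, against -0.09 over all tested genes). None had an adjusted p under 0.05 in edgeR, and 11 of the 22 had an unadjusted p under it, against 7.87% of all tested genes. The part of other cells in the Maoa counts was not tested, and no library of osteoblasts alone is among the samples. As in any bulk RNA, a larger number of cells of a type and more RNA per cell cannot be told apart.

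**Figure D2:**
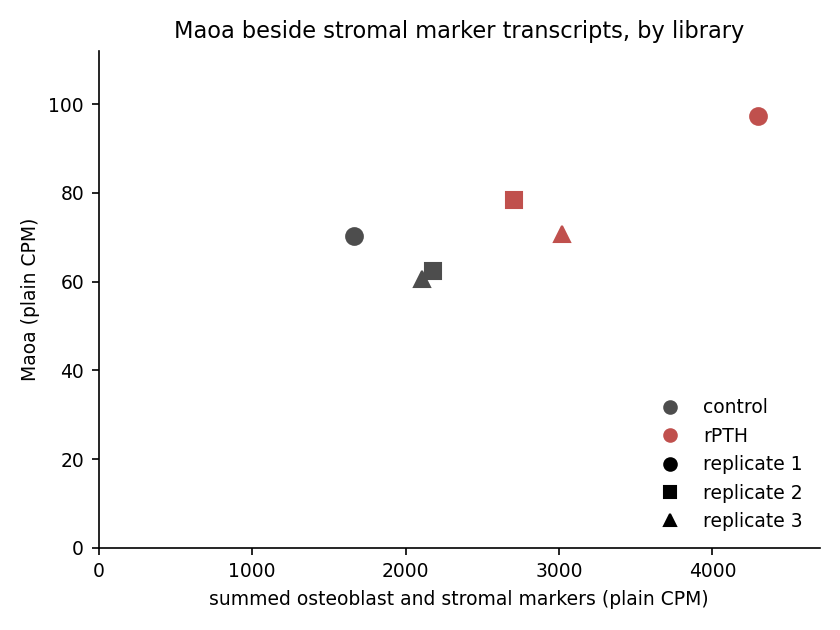
Maoa (plain CPM, vertical axis) against the summed plain CPM of the 28 osteoblast and stromal markers (horizontal axis), 1 point per library, grey for control and red for rPTH. Library rPTH 1 lies at the top right with 97.2 and 4300 CPM, and control 1 combines the lowest marker sum (1664 CPM) with 70.2 CPM of Maoa.

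Maob, which acts more on phenylethylamine and related amines and whose isoform is typical of platelets and serotonin neurons, was more abundant here than Maoa. It had 185, 199 and 191 CPM for controls 1 to 3 and 157, 209 and 196 CPM for rPTH 1 to 3. The controls lay within 3.6% of their mean (SD) and rPTH 1 was the lowest library. The means were 192 ± 6.9 and 187 ± 27.4 CPM (SD, n = 3 each), and the log2 fold change of -0.04 ± 0.17 (SE) had a 95% interval from -0.44 to 0.37. The adjusted p in edgeR was 0.934 and the sign changed in 7 of 17 alternative settings. Per kb of exon Maob was 2.48 to 4.93 times as high as Maoa, with the lowest ratios in rPTH 1 (2.48) and control 1 (3.19) and 4.17 to 4.93 in the other 4 libraries.

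Hnmt, the methyltransferase that inactivates histamine inside cells, was essentially not detected: it had 2 counts in control 3 and 0 in the other 5 libraries. A count of 0 allows up to 3 counts, which is 0.152 CPM in control 1 and 0.0841 CPM in rPTH 3, the deepest library. Such limits cover counting error only. It was too low to test. The other known histamine-degrading enzyme, the secreted diamine oxidase Aoc1, had 0 to 4 counts (named after its values were seen). Transcripts for making and storing histamine were thus abundant, while those of both degrading enzymes were at or near the limit of detection in either group.

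Levels were compared between genes per kb of annotated exon, because longer transcripts give more counts. Over the 6 libraries of both groups the means were 521 ± 72.6 CPM per kb for Tph1, 93.6 ± 17.2 for Hdc, 68 ± 6.46 for Maob, 37.3 ± 6.08 for Slc18a2, 22.5 ± 3.95 for Ddc and 17.7 ± 3.51 for Maoa (SD, n = 6). Lower down were Gch1 with 4.7 ± 1.19, Pts with 2.6 ± 0.443 and Slc6a4 with 2.37 ± 0.249 CPM per kb. The annotated exons of Pts merge into 2 blocks with 6101 bases, most of the gene's span. Its level per kb, and so its place in the order, may be too low. Of 12315 tested protein-coding genes only 63 were above Tph1 on this scale and 442 above Hdc, but 6888 were above Gch1 and 8662 above Slc6a4. Tph1 and Hdc, Maob and Slc18a2, Maoa and Gch1, and Gch1 and Pts had ranges that did not overlap. Pts was above Slc6a4 in 3 of 6 libraries, the 3 controls, and below it in the 3 rPTH libraries. The means of Pts and Slc6a4 were 2.93 and 2.2 CPM per kb in controls and 2.27 and 2.55 with rPTH. Over both groups together that pair could not be ordered. The ranges of Hdc and Maob touched, although Hdc was higher in all 6 libraries. Slc18a2 was above Ddc, and Ddc above Maoa, in 5 of 6 libraries. With the length of the longest transcript in place of all exons, Ddc moved above Slc18a2 and Slc6a4 above Pts. Along the serotonin route, RNA of the first enzyme averaged 23 times that of the second in controls and 23.7 times with rPTH. With the longest transcript the ratios were 14.1 and 14.5. Both enzymes were above the cofactor enzymes Gch1 and Pts on this scale, with the limit for Pts given above.

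**Figure D3:**
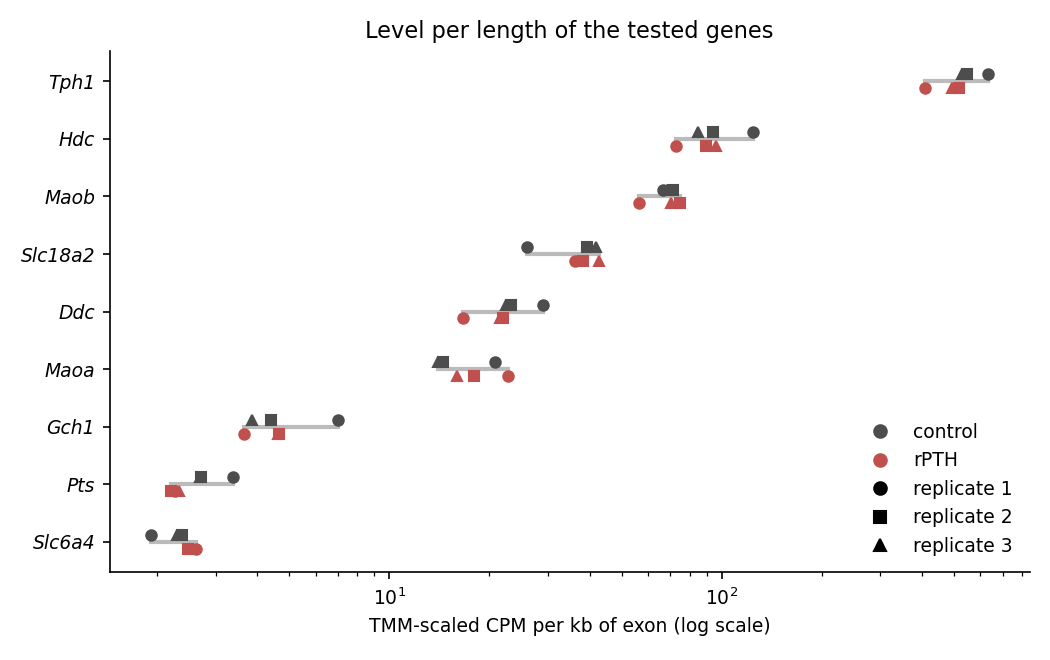
Level per length of the 9 tested genes (TMM-scaled CPM per kb of exon, log axis), 1 point per library in grey for control and red for rPTH; the grey line spans the 6 libraries. The order runs from Tph1 (409 to 632) through Hdc (72.8 to 124) down to Slc6a4 (1.92 to 2.63). The groups lie close together compared with this whole span, but not compared with the distance between close neighbours such as Pts and Slc6a4.

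The question of the design was whether exposure to rPTH changed these RNAs. Of the 16696 genes that passed the filter on low counts, 9 were members, and none of the 9 had an adjusted p under 0.05 in edgeR. That share was 0% over all genes as well. None of the 9 had an unadjusted p under 0.05 either, against 7.87% of all genes; DESeq2 and limma-voom also called 0 members, with 0 at an unadjusted p under 0.05. The log2 fold change was above 0 for 3 members (Slc6a4, Maoa and Slc18a2) and below 0 for 6 (Pts, Ddc, Tph1, Gch1, Hdc and Maob). All tested genes divided into 6930 above 0 and 9766 below. The median was -0.23 for the members and -0.09 over all tested genes. The groups did not overlap for 4 of 9 members, against 16.8% of all tested genes. Slc6a4 was on the higher side, as were 8.35% of all tested genes, and Tph1, Ddc and Pts were on the lower, as were 8.46%. That count was 2 of 9, Slc6a4 and Pts, with RLE size factors, when 17.6% of all genes did not overlap. The members share libraries and are not independent, so these counts are a description. Every 95% interval included 0. The widest was that of Gch1, from -0.85 to 0.37, and a p above the threshold does not show that the levels were the same.

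**Figure D4:**
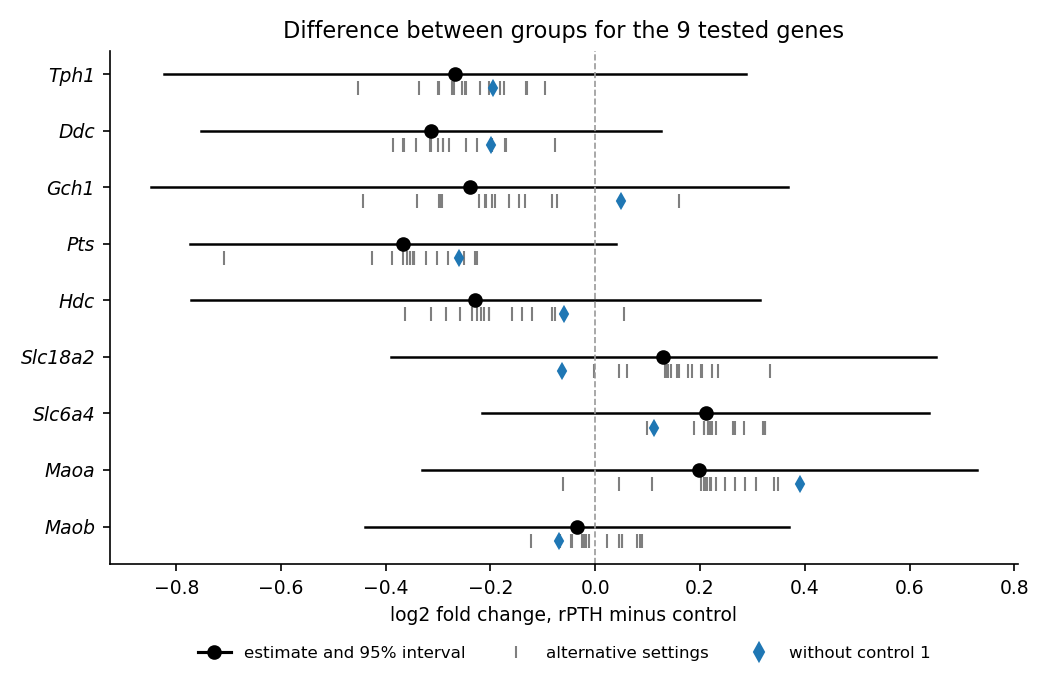
Log2 fold change of rPTH minus control for the 9 tested genes: black points and lines are the estimate and its 95% interval, grey ticks the alternative settings and blue diamonds the value without control 1. All intervals cross 0, from Pts (-0.77 to 0.04) to Slc18a2 (-0.39 to 0.65), and the diamonds of Gch1 (0.05) and Slc18a2 (-0.06) lie on the other side of 0 from the estimate.

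Single libraries stood apart for several members together. As a log2 deviation from the mean over the 6 libraries, control 1 was at 0.61 for Gch1, 0.43 for Hdc, 0.40 for Pts, 0.39 for Ddc and 0.29 for Tph1, and at -0.51 for Slc18a2 and -0.30 for Slc6a4. Library rPTH 1 was at -0.41 for Ddc, -0.34 for Hdc, -0.34 for Tph1 and -0.33 for Gch1, and at 0.38 for Maoa. For Pts, also a synthesis gene, rPTH 2 (-0.22) was the lowest library and rPTH 1 was at -0.18. The other 4 synthesis genes, Tph1, Ddc, Hdc and Gch1, were thus high in control 1 and low in rPTH 1 together. In the other 4 libraries they stayed within -0.25 to 0.08. With both of these libraries left out, an alternative chosen after seeing the data, the log2 fold changes were -0.10 for Tph1, -0.08 for Ddc, 0.06 for Hdc and 0.16 for Gch1. They were -0.25 for Pts, 0.10 for Slc6a4 and 0.25 for Maoa. These are differences of 2 libraries against 2, and the pair left out was chosen after seeing the data, as the highest and the lowest library for Tph1, Ddc, Hdc and Gch1. Control 1 was the library with the most ribosomal protein RNA and rPTH 1 that with the most stromal RNA; the part of either in the members' levels was not tested.

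**Figure D5:**
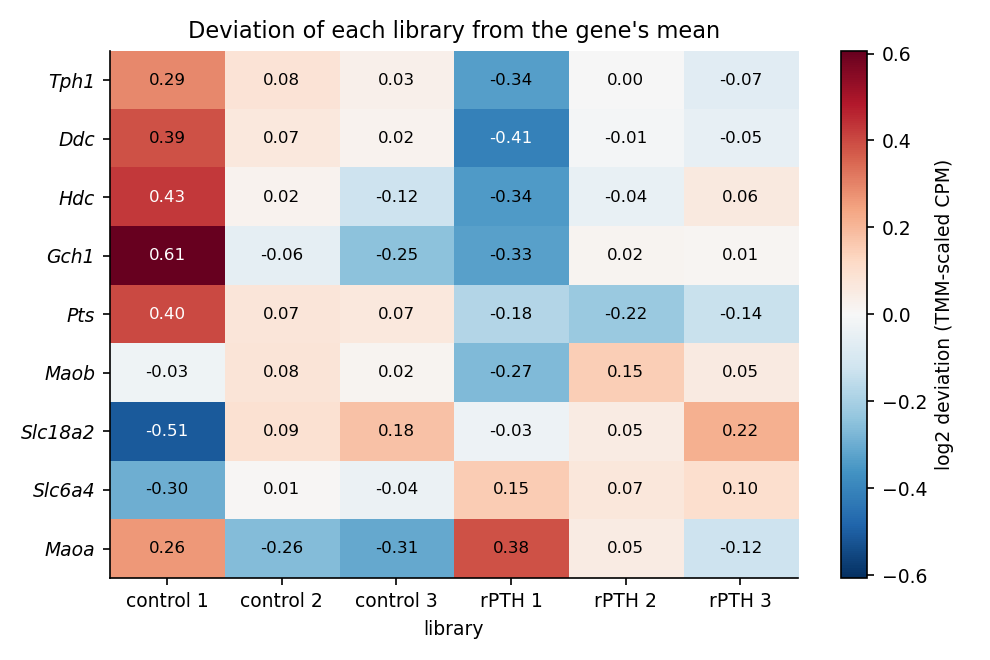
Log2 deviation of each library (columns) from the mean of each gene over the 6 libraries (rows, TMM-scaled CPM), red for higher and blue for lower. The first column, control 1, runs from 0.61 (Gch1) to -0.51 (Slc18a2), and the rPTH 1 column from 0.38 (Maoa) to -0.41 (Ddc).

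The remaining genes of the pathway came from 8 lists with 65 genes, of which 64 were in the table and 29 were high enough to test. None of the 29 passed in edgeR, and 1 had an unadjusted p under 0.05, against 7.87% of all tested genes. The log2 fold change was above 0 for 10 and below 0 for 19, with a median of -0.11. Over all 16696 tested genes it was above 0 for 6930 and below 0 for 9766. The groups did not overlap for 2 of the 29 on the higher side (Slc18b1 and Htr2a). On the lower side they did not overlap for 3 (Slc3a2, Aldh2 and the uptake gene Slc43a1). Over all tested genes 16.8% did not overlap. Supply was well represented. Slc7a5, the light chain of the transporter that imports tryptophan and other large neutral amino acids, averaged 541 ± 34.4 CPM over the controls and 496 ± 33 CPM over the rPTH libraries (SD, n = 3 each), and pairs of means below are in this order. Its heavy chain Slc3a2 had 396 ± 103 and 300.2 ± 12.8 CPM, and the related Slc7a8 99.9 ± 25.9 and 108 ± 13.7 CPM. Of these 6 tested uptake genes 1 was above 0 and 5 below. Pyridoxal kinase Pdxk, which makes the cofactor of Ddc and Hdc, had 82.9 ± 5.46 and 83.3 ± 5.79 CPM. Plpbp, a pyridoxal phosphate binding protein listed under its older symbol Prosc, had 53.3 ± 2.87 and 53.5 ± 5.61 CPM.

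Further steps of BH4 synthesis and recycling had 8 of 8 genes tested, 7 below and 1 above 0, with a median log2 fold change of -0.47 and 0 called. Their summed level was 643 plain CPM in control 1 against 374 to 469 plain CPM in the other 5 libraries. The reductases Akr1b3 (279 ± 136 and 238 ± 28 CPM) and Cbr1 (82.2 ± 38.2 and 57.1 ± 5.56 CPM) had controls far apart from each other. Enzymes that act on the products of amine oxidation were abundant: the aldehyde dehydrogenases Aldh2 (391 ± 76.1 and 303 ± 5.82 CPM) and Aldh9a1 (93.6 ± 6.06 and 86.5 ± 4.21 CPM). Of 6 tested degradation genes 2 were above 0 and 4 below.

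The other amine enzymes that were listed, which leave out polyamine synthesis, were near the limit of detection. Of 9 other amine enzymes only Tph2 passed the filter on low counts, at 0.309 ± 0.0786 and 0.524 ± 0.164 CPM. Tyrosine hydroxylase Th had 2 to 6 counts per library, dopamine beta-hydroxylase Dbh 0 to 4 and the tryptophan-degrading Ido1 0 to 4 (these 3 were named after their values were seen). Of 8 other transporters only Slc18b1, a vesicular transporter of polyamines, was tested. It had 1.11, 2.05 and 1.9 CPM for controls 1 to 3 and 3.9, 2.93 and 2.97 CPM for rPTH 1 to 3. All rPTH libraries were above the controls, as for 8.35% of all tested genes (log2 fold change 0.94 ± 0.33, SE). Its counts ran from 22 to 123 and the adjusted p in edgeR was 0.619. The low-affinity carriers Slc22a2, Slc22a3 and Slc29a4 had 0 to 4 counts (also named after their values were seen), so Slc6a4 was the plasma membrane carrier of serotonin with the most counts among those listed.

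Receptors for the 2 amines were mostly low. The histamine receptor Hrh2, which couples to cAMP formation, had 50.6 ± 7.4 and 49.1 ± 3.38 CPM, and Hrh4 0.591 ± 0.427 and 0.49 ± 0.0408 CPM (SD, n = 3 each). Of 14 serotonin receptor genes 12 were too low to test. Htr1b had 4.36 ± 1.36 and 4.69 ± 0.881 CPM. Htr2a had 5, 47 and 26 counts for controls 1 to 3 and 84, 85 and 73 counts for rPTH 1 to 3, or 1.07 ± 0.785 and 2.39 ± 0.316 CPM. The groups of Htr2a did not overlap, with rPTH higher, as for 8.35% of all tested genes, and control 1 was lowest. Its log2 fold change of 1.14 ± 0.60 (SE) had an adjusted p of 0.628 in edgeR.

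For 8 of the 9 tested members the authors' deposited table gave the same sign as above, the exception being Maob. In the authors' deposited table the log2 fold change was -0.17 for Tph1, -0.13 for Hdc, -0.21 for Ddc, -0.27 for Pts and -0.13 for Gch1. On the other side, the authors' deposited table had 0.18 for Slc18a2, 0.26 for Slc6a4, 0.26 for Maoa and 0.04 for Maob. The adjusted p of these 9 genes in the authors' deposited table ran from 0.645 (Pts) to 0.938 (Maob), and Hnmt had none.

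In GENCODE M21 on GRCm38, Tph1 (ENSMUSG00000040046.14) spans chromosome 7 from 46644641 to 46672537, Ddc (ENSMUSG00000020182.16) chromosome 11 from 11814101 to 11898144 and Hdc (ENSMUSG00000027360.5) chromosome 2 from 126593667 to 126619299, all on the minus strand. Slc18a2 (ENSMUSG00000025094.8) spans chromosome 19 from 59260896 to 59296012 and Slc6a4 (ENSMUSG00000020838.12) chromosome 11 from 76998603 to 77032340, both on the plus strand. Maoa (ENSMUSG00000025037.6) spans chromosome X from 16619698 to 16687818 on the plus strand and Maob (ENSMUSG00000040147.14) from 16709282 to 16817366 on the minus strand. Gch1 (ENSMUSG00000037580.10) lies on chromosome 14 from 47153895 to 47189413, Pts (ENSMUSG00000032067.6) on chromosome 9 from 50521617 to 50528724 and Hnmt (ENSMUSG00000026986.14) on chromosome 2 from 24002910 to 24049394, all on the minus strand. No member shares exonic bases with another annotated gene except Slc18a2. The antisense gene 1700042O10Rik lies in introns of Ddc and had 87 to 165 counts.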

How the data were processed

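RNA of 6 MC/9 libraries was sequenced (TruSeq RNA kit, per the labels' protocols). The authors deposited raw whole-number counts per gene symbol. The submitters' processing notes list, in no stated role, STAR 2.5.2b, Trimmomatic 0.36, featureCounts of Subread 1.5.0p3, R 3.3.0 and DESeq2 1.12.4, and the builds mm9 and GRCm38.p5. The annotation and strand setting behind the counts are not given in the sources used here. A second table deposited by the authors is their comparison, with log2 fold changes and p-values per gene, quoted as theirs.

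Groups follow the sample titles. The counts of 49568 genes were tested with edgeR 4.0.16 in R 4.3.3 (quasi-likelihood, robust, TMM factors, filterByExpr with minimum count 10, which left 16696 genes; Benjamini-Hochberg over all of them, threshold 0.05). The script was checked on simulated data. Levels per length use the union of exons in GENCODE M21, on GRCm38. Alternatives used DESeq2 1.42.0, limma 3.58.1 (voom), other factors, filters and gene sets, removal of length and GC trends, a replicate block and each library left out. The members, lists and alternatives were chosen with earlier results of these data known. All members are named; from each pathway list, up to 3 tested genes of highest mean CPM (some of these are not reported here), and for Hdc and Tph1 the 3 most correlated genes. Library pairs differed by more than sampling noise (chi-square per degree of freedom 12 to 261).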

Additional observations from a re-analysis of the deposited data

How the results depend on the processing

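No member passed under any of the 17 alternatives. The number of all genes called was 0 in all of them except with DESeq2, which called 8 (smallest adjusted p 0.05, at the threshold); the number at an unadjusted p under 0.05 was 1314 with edgeR, 1825 with DESeq2 and 790 with limma-voom, and 272 to 2165 with single libraries left out. Among the members, Pts had an unadjusted p of 0.0332 in edgeR after removal of the length and GC trend. In edgeR Maoa had an unadjusted p of 0.0281 without control 1. It was 0.0251 without control 1 and rPTH 1 together, a setting chosen after seeing the data. The other alternatives put no member under 0.05. The sign held in all 17 alternatives for Tph1, Ddc, Pts and Slc6a4. It changed for Maob with DESeq2 (0.044), RLE size factors (0.023), library totals only (0.086) and no filter on low counts (0.089), and for Maoa after removal of the length and GC trend (-0.061); that setting took Tph1 to -0.45, Hdc to -0.36, Gch1 to -0.44 and Pts to -0.71, away from 0. With single libraries left out the log2 fold change ran from -0.12 to 0.079 for Maob, from -0.34 to 0.048 for Gch1, from -0.064 to 0.33 for Slc18a2 and from -0.31 to -0.06 for Hdc. Without control 1 and rPTH 1 together, chosen after seeing the data, it was 0.16 for Gch1, 0.055 for Hdc, 0.051 for Maob and -0.0033 for Slc18a2. Members whose groups do not overlap numbered 4, where 16.8% of all genes did not overlap. They numbered 2 with RLE size factors (17.6% of all genes) and 2 with no filter on low counts (12.2%). With single libraries left out they numbered 4 to 5, while the share of all genes was 20% to 34.3%. Without control 1 and rPTH 1 they numbered 6, against 38.6% of all genes. Fewer samples make overlap rarer. With library totals only, the median log2 fold change of all genes was 0.13 higher, and the members moved with it. Same-numbered libraries did not pair (correlations of deviations -0.13, -0.32 and 0.14); with a replicate block 0 genes were called and 525 had an unadjusted p under 0.05, against 1314. Otherwise the cause was not tested. Depth limits Hnmt, Htr2a and Slc18b1 more than the abundant members.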
